A study of Homo sapiens with 9 samples.

Results

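Cells that carried NPPB, the gene for B-type natriuretic peptide, made up a small fraction of the hypoblast-like layer of human extra-embryoids (hEEs), and are described here gene by gene. Barcodes with 3430 to 27500 unique molecular identifiers (UMIs, each of which marks 1 captured transcript) and at most 10% of them mitochondrial were kept as cells, and the members were chosen by raw UMIs: at least 3 of FN1 (fibronectin), none of SOX2, at most 5 of POU5F1, at least 2 of NPPB and at most 1 of the glycophorin genes GYPE and GYPB and of RIPPLY1 summed. This gave 470 members among 9151 kept cells on D4 (5.14% [4.69, 5.61]) and 479 among 10097 on D6 (4.74% [4.34, 5.18]), or 949 of 19248 in all. Within the FN1, SOX2 and POU5F1 gate, which stands for the hypoblast-like compartment and held 4061 and 3567 cells, members were 11.6% [10.6, 12.6] on D4 and 13.4% [12.3, 14.6] on D6. They are compared with the gate cells of the same day that had no NPPB UMI, which numbered 3301 on D4 and 2858 on D6, and each difference is given as the log2 ratio of the members' level over theirs. The levels of the 7 genes in the rule describe the choice and are not results.

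Both groups of samples, hEE D4 and hEE D6, were wild type ESI017 human embryonic stem cells, labelled as not treated, and grown into 3-dimensional aggregates for 4 or 6 days after culture in an expanded-potential medium. By the study's methods both days shared the ROCK inhibitor Y27632, which lowers actomyosin contraction, at the start of aggregation, and a change from a spontaneous differentiation medium to mIVC2 medium on D3. Aggregates that showed an inner and an outer compartment were picked, cultures of several clones and passages of this line were pooled for each day, and the outer layer needed a longer dissociation than the inner one. There was 1 droplet library of transcript 3′ ends for each day, so no test across samples was possible, and day and library cannot be told apart. All intervals in brackets are exact 95% intervals (Poisson for levels, binomial for shares, conditional binomial for ratios) and cover counting error only. The D4 library held 151712246 UMIs over 10943 barcodes and the D6 library 150320228 UMIs over 11483 barcodes, of which 40 barcodes occurred in both libraries. Of those, 4 were members on D4 and 0 on D6. The doublet caller Scrublet marked 353 of 9151 kept cells (3.86%) on D4 and 432 of 10097 (4.28%) on D6, among them 7 and 3 members, which were left in.

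The hypoblast, or primitive endoderm, is the epithelium that lines the blastocyst cavity under the epiblast and goes on to form the yolk sac. A subset of it, the anterior visceral endoderm, secretes antagonists of NODAL, WNT and BMP such as CER1 and LEFTY1. NPPB encodes a secreted hormone precursor best known from stretched or stressed heart muscle, where its promoter is used as a reporter of mechanical load. In GRCh38 the gene lies at chr1:11857464-11858945.

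NPPB was spread unevenly over the members. On D4 a member held between 2 and 254 NPPB UMIs with a median of 6, and on D6 between 2 and 376 with a median of 7. Cells with at least 10 NPPB UMIs were 191 (40.6%) on D4 and 202 (42.2%) on D6, and the 47 and 48 members with the most NPPB held 51.3% and 54.3% of all the members' NPPB UMIs. The summed level was 1337 [1309, 1365] CPM (the share of all UMIs in these cells, scaled to 1000000) on D4 and 1738 [1706, 1770.0] CPM on D6. The distribution had a long upper end with no gap at the threshold: in the gate with the glycophorin limit, 285 and 218 cells had 1 NPPB UMI, just outside, and 101 and 82 had 2, just inside.

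**Figure D1:**
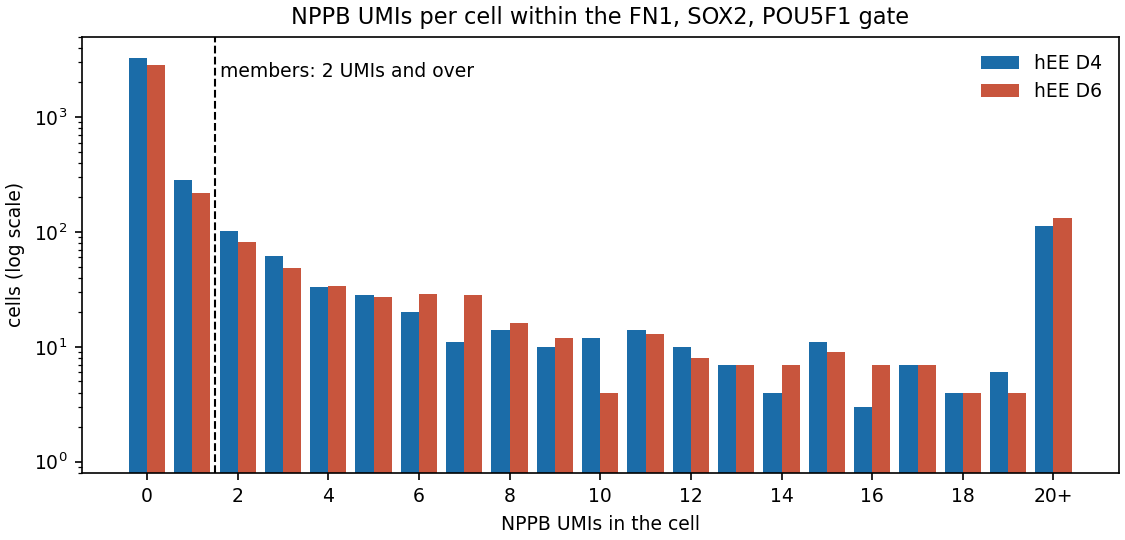
Number of gate cells within the glycophorin limit (log scale) by NPPB UMIs in the cell, with hEE D4 and hEE D6 as separate bars and 20 UMIs and over in 1 bar. Counts fall from 3285 and 2818 cells without NPPB to 101 and 82 cells at 2 UMIs, with no gap at the dashed threshold, and 191 and 202 members had 10 UMIs or more.

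The other limits of the rule touched fewer cells. Among cells that met every other limit, 34 on D4 and 34 on D6 had exactly 3 FN1 UMIs and 30 and 26 had 2. Exactly 1 SOX2 UMI was found in 13 and 16 cells, which were thereby kept out. At POU5F1, 8 and 1 cells had 5 UMIs and 2 and 1 had 6, and the glycophorin sum was 1 in 18 and 9 cells and 2 in 1 and 3. Of all kept cells with at least 2 NPPB UMIs, 184 of 659 on D4 (27.9% [24.5, 31.5]) and 136 of 625 on D6 (21.8% [18.6, 25.2]) lay outside the gate, and for 91 and 62 of them the FN1 limit was the only one missed. Members held 70.1% and 71.3% of the NPPB UMIs of kept cells.

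Free RNA in droplets was gauged from the inner compartment. In embryonic cells (at least 1 SOX2 UMI, at most 2 of FN1, more than 5 of POU5F1), NPPB UMIs were present in 3.45% [2.88, 4.09] of 3680 cells on D4 and 3.19% [2.72, 3.71] of 5022 cells on D6, against 18.7% and 19.9% of all gate cells. Embryonic cells were deeper, with medians of 15220 and 14247 UMIs against 11012 and 10902 in the gate. When every cell was thinned to 3430 UMIs the shares were 1.01% and 0.936% in embryonic cells and 11.6% and 13.0% in the gate, so NPPB was above that background in the gate on both days.

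Hypoblast markers stood in the members within 2-fold of their level in the gate cells without NPPB, though not all at like levels. Of 14 hypoblast markers, 13 were compared on D4 and 14 on D6, and none lay 2-fold from the gate cells without NPPB. APOA1, a yolk sac apolipoprotein, stood at 2190.0 [2154, 2226] CPM in members and 1495 CPM in cells without NPPB on D4, and at 13189.6 [13102, 13278] and 11722 CPM on D6. SOX17, an endoderm transcription factor, stood at 94.1 and 91.7 CPM on D4 and at 99.5 and 103 CPM on D6. GATA6, which specifies the hypoblast, was at 196 against 105 CPM on D4, a log2 ratio of 0.90 [0.81, 1.00], and at 338 against 289 CPM on D6, a log2 ratio of 0.23 [0.16, 0.29]. The list median log2 ratio was 0.03 on D4 and 0.10 on D6, where all compared genes had medians of -0.04 and -0.05.

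Markers of trophoblast, blood, amnion and mesoderm were few in the members. Nearly all trophoblast marker UMIs were of GATA3, which gate cells without NPPB carried as well (175 and 233 CPM on D4, 193 and 229.9 CPM on D6), and 10 of the 13 markers had no UMI in members on each day. Blood and endothelial markers summed to 2.88 and 4.27 CPM over 10 genes, led by RUNX1, and amnion markers to 54.7 and 99.3 CPM over 9 genes, most of it MSX2 (41.8 and 95.1 CPM), with TFAP2B, VTCN1 and WNT6 at 0. Mesoderm markers summed to 25.3 and 38.9 CPM over 11 genes, most of it TWIST1, against 39.0 and 91.5 CPM in cells without NPPB. The glycophorin limit of the members leaves out 16 and 40 of those reference cells, and in the rest the mesoderm markers summed to 38.5 and 83.3 CPM. TWIST1 on D6 stood at 33.7 CPM in members, 69.2 CPM in all reference cells and 69.3 CPM in those within the limit. HAND1 on D6 stood at 0.914, 10.3 and 5.91 CPM in that order, so that within the limit it was under the 10 CPM minimum. Pluripotency genes of the epiblast list, such as L1TD1 (326 and 262 CPM) and LIN28A, summed to 1101 and 1005 CPM in members and 972 and 951 CPM in cells without NPPB.

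Of 8769 genes compared on D4 (at least 10 CPM in either group and 20 UMIs over both, rule genes left out), 85 were at least 2-fold higher in members (0.969%) and 34 at least 2-fold lower (0.388%). On D6, 27 of 8708 were higher (0.310%) and 15 lower (0.172%). Of all compared genes, 42.5% lay above 0 and 57.5% below on D4, and 39.4% above and 60.6% below on D6. Of the genes 2-fold higher, 33 of 85 and 10 of 27 reached 10 CPM in members only, and of those 2-fold lower 24 of 34 and 10 of 15 reached it in cells without NPPB only, so that the minimum itself favours a difference for them. Among genes described below as higher, this holds for MYOCD, ACTC1, ACTA1 and ATF3 on D4, CNN1 and NUAK2 on D6 and KLF2 on both days. Among those described as lower it holds for S100A6, LINC00379 and TPPP3 on D4 and for HAPLN1, IFI16 and CNKSR2 on D6. Among the 8397 genes compared on both days, 20 were 2-fold higher on each day and 5 were 2-fold lower on each day. All 72 genes that were 2-fold higher on D4 and also compared on D6 had a ratio above 0 on D6. Members were deeper than the reference cells, with medians of 12961 against 10768 UMIs on D4 and 12988 against 10620 on D6, and had a larger mitochondrial share, with medians of 4.48% against 3.61% and 2.58% against 2.00%. The part of either in the differences was gauged by other reference cells. With reference cells drawn to match the members' depth, the counts higher were 77 and 27. With cells matched on mitochondrial share they were 79 and 36, while the genes lower on D4 numbered 21 in place of 34.

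Genes of at least 50 CPM on both days are named by rank. The 15 leading genes had this level in members and were ranked by the smaller of their log2 ratios on D4 and D6. The 10 low genes had it in cells without NPPB and were ranked by the larger. Another 5 each way had it in either group and were ranked by the difference between days. This minimum favours a difference for genes under it in the other group. Those were PHLDA2 on both days, MYL4, LIFR and TRNP1 on D4 and CER1 on D6. Among low genes they were AGPAT5 and AC007405.3 on both days, PRTG on D4 and TFPI on D6. The first leading gene was TAGLN, which encodes the actin-binding protein transgelin of smooth muscle and of spreading cells. It stood at 1502 [1472, 1532] CPM in members and 260.3 [255, 265] CPM in cells without NPPB on D4. On D6 the levels were 1334 [1306, 1362] and 161 [157, 166] CPM. Nearly every member on D4 had it: 98.3% of members and 61.2% of cells without NPPB had a UMI, with medians of 17 and 1 UMIs per cell, and on D6 the shares were 91.9% and 50.1% with medians of 9 and 1. The ranges still overlapped, from 0 to 115 UMIs in members and from 0 to 48 in cells without NPPB on D4, and from 0 to 170 and from 0 to 38 on D6. The log2 ratio was 2.53 [2.49, 2.57] on D4 and 3.05 [3.00, 3.10] on D6, and with depth-matched reference cells it was 2.56 and 2.95. Among the leading genes CER1 came next on D4 at 2.48 and stood above TAGLN there with depth-matched reference cells, at 2.87. Genes left out of the ranking could have larger ratios, such as ACTC1 at 3.24 on D4, which was under 50 CPM in members on D6.

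**Figure D2:**
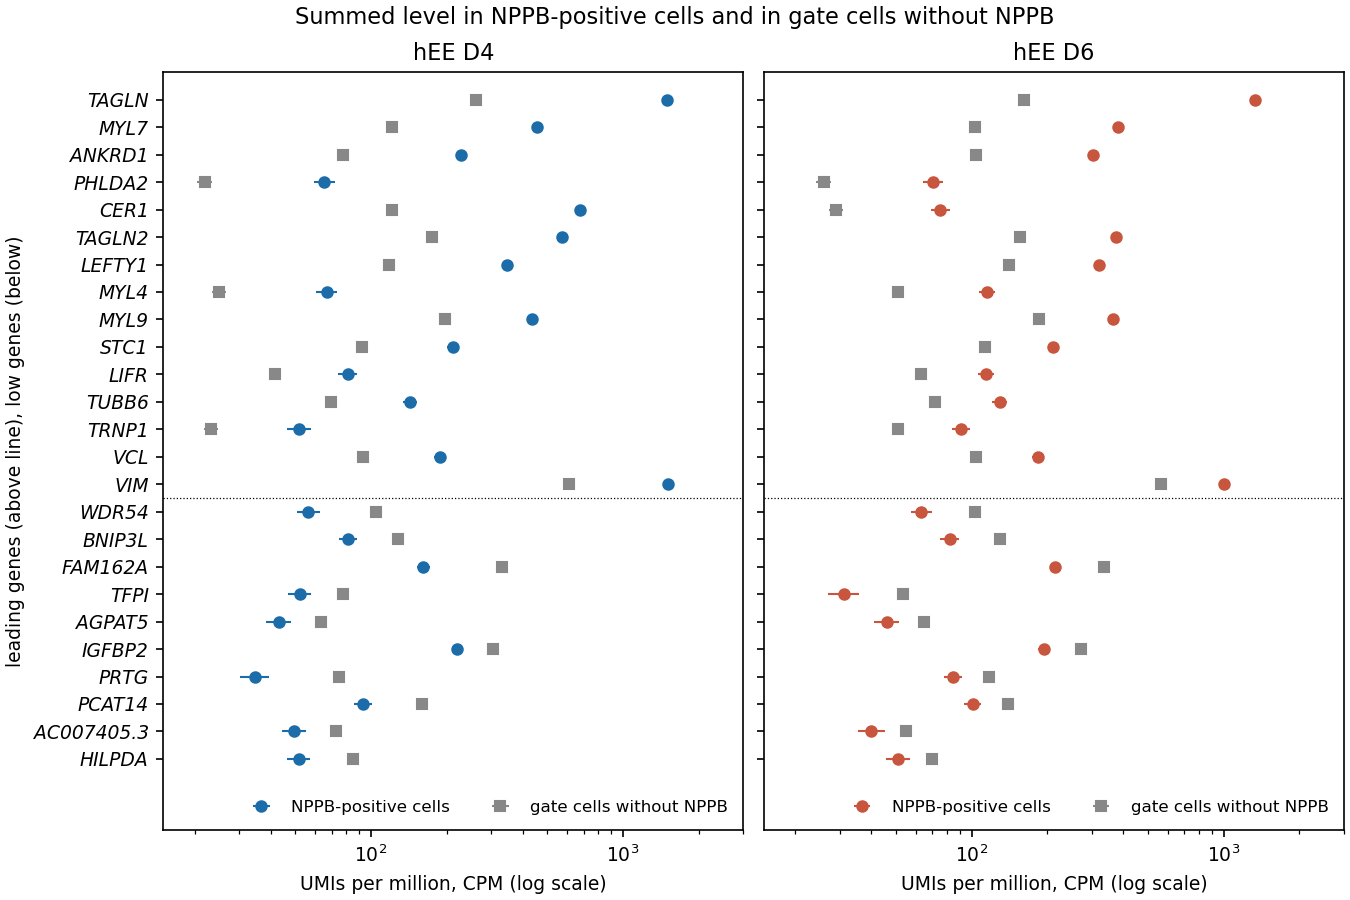
Level in CPM (log scale) of the 15 leading genes and the 10 low genes in NPPB-positive cells (circles) and gate cells without NPPB (squares) on D4 and D6, with bars for the exact 95% Poisson interval of counting error where it is wider than the marker. TAGLN shows a wide gap on both days, at 1502 against 260.3 CPM and 1334 against 161 CPM, and the 10 low genes show narrower ones.

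TAGLN headed a broader group of actin genes. All 21 of the actin cytoskeleton and contractility genes that were compared had a ratio above 0 on each day, where 42.5% and 39.4% of all genes did, with list medians of 0.63 and 0.51, and 5 of them on D4 and 3 on D6 passed 2-fold (0.969% and 0.310% of all genes), among them VCL on D4, which was at 0.81 when cells with 1 NPPB UMI were counted as members. TAGLN2, a paralogue with a wide tissue range, was at 572 against 175 CPM on D4 and 373 against 155 CPM on D6, with log2 ratios of 1.71 [1.65, 1.77] and 1.27 [1.20, 1.34]. CNN1, which encodes calponin of smooth muscle, was at 54.3 against 12.5 CPM and 25.7 against 8.50 CPM. MYL9, the regulatory light chain of non-muscle and smooth muscle myosin, had ratios of 1.15 and 0.97, and VCL, the focal adhesion protein vinculin, 1.01 and 0.82. The abundant cytoplasmic actins differed less, with ACTB at 4598 against 3038 CPM on D4 (0.60) and 4586 against 3408 CPM on D6 (0.43). SRF, the transcription factor of many of these genes, had ratios of 0.29 and 0.15.

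Smooth muscle was marked only in part. Besides CNN1, MYOCD, the coactivator of the smooth and cardiac muscle programme, stood at 14.2 [11.5, 17.4] against 2.36 CPM on D4 and 3.81 [2.46, 5.62] against 0.835 CPM on D6, and 14.9% and 3.97% of members had a UMI of it. ACTA2, the smooth muscle actin, stood at 0.606 and 0.457 CPM, and the smooth muscle myosin MYH11 at 0.606 and 0.152 CPM, while LMOD1 had no UMI in members. The actin gene ACTC1 of embryonic heart and skeletal muscle, which is not on either muscle list and was picked out after its values were seen, stood at 83.4 [76.5, 90.6] against 8.81 CPM on D4 and 46.2 [41.1, 51.7] against 10.7 CPM on D6. It was found in 26.4% of members on D4 and 11.5% on D6, and 5 cells held 32.5% and 48.8% of its UMIs. The skeletal actin gene ACTA1, also named after its values were seen, stood at 27.6 [23.7, 31.9] against 1.38 [1.03, 1.81] CPM on D4, a log2 ratio of 4.32 [3.87, 4.79], and at 7.31 [5.39, 9.70] against 0.897 CPM on D6, under the minimum. ACTC1 and ACTA1 are close copies, so reads between them may be split.

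The cardiac list was likewise led by myosin light chains. MYL7, the regulatory light chain of atrial and embryonic heart muscle, stood at 456 [439.9, 473] CPM in members and 121 [118, 125] CPM in cells without NPPB on D4, and at 382 [367, 398] and 103 [99.9, 107] CPM on D6. Its log2 ratio was 1.91 [1.84, 1.98] and 1.89 [1.81, 1.96], and members with a UMI were 93.2% and 87.1% against 52.9% and 50.2% of cells without NPPB. MYL4, the matching essential light chain, had ratios of 1.42 [1.25, 1.58] and 1.18 [1.06, 1.31]. The third cardiac gene compared was TTN, the giant spring protein titin, with 0.14 and 0.20. TNNC1, the slow and cardiac troponin C gene, which is outside the list and was named after its values were seen, stood at 385 against 194 CPM and 400.1 against 238 CPM. TNNI3, the cardiac troponin I gene, also outside the list and named after its values were seen, stood at 2.88 [1.73, 4.50] against 1.19 [0.871, 1.60] CPM on D4 and 40.5 [35.8, 45.7] against 20.3 [18.8, 21.9] CPM on D6, where its log2 ratio was 1.00 [0.79, 1.20]. Other cardiac genes were near 0 in members: TNNT2 at 0.909 and 0.762 CPM, NKX2-5 at 1.06 and 0.152 CPM, and MYH6, MYH7 and TBX5 without a UMI on either day.

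The natriuretic system around NPPB was sparse. NPPA, the neighbouring gene for atrial natriuretic peptide, stood at 3.03 [1.85, 4.68] CPM in members and 0.531 CPM in cells without NPPB on D4, and at 0.762 [0.247, 1.78] and 0.186 CPM on D6, from UMIs in 13 and 5 members. FURIN, a protease that cleaves the hormone precursor, was at 31.1 against 31.1 CPM and 31.5 against 32.0 CPM. The receptor genes NPR1, NPR2 and NPR3 lay at 0.455, 4.09 and 0.303 CPM in members on D4 and at 0.305, 2.89 and 0 CPM on D6. Of 17 genes for factors known to act on the cardiac NPPB promoter, 12 and 13 were compared, none passed 2-fold, and the medians were 0.20 and 0.09.

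ANKRD1, a cardiac ankyrin repeat protein and a widely used target of YAP and TEAD, stood at 228 [217, 239.9] against 77.5 [74.7, 80.4] CPM on D4 and 304 [290.5, 317] against 104 [100.3, 107] CPM on D6. The ratios, 1.56 [1.47, 1.65] and 1.55 [1.47, 1.63], had overlapping intervals on D4 and D6. A UMI of ANKRD1 was found in 51.1% and 58.7% of members and in 32.3% and 30.4% of cells without NPPB. The other YAP and TEAD targets are given beside it. Of 15 compared, 10 on D4 and 13 on D6 had ratios above 0 (42.5% and 39.4% of all genes). ANKRD1 alone passed 2-fold on D4 (0.969% of all genes were higher), and ANKRD1 and the kinase gene NUAK2 did on D6 (0.310%). NUAK2 lay at the 2-fold limit there with a log2 ratio of 1.00 [0.59, 1.41], but reached 10 CPM in members only. CCN1, a matricellular protein, had ratios of 0.55 and 0.63, CCN2 0.12 and 0.35, and the list medians were 0.26 and 0.36.

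Promoter sequences are shown for 3 of the leading genes, MYL7, ANKRD1 and CER1, because motif matches for cardiac and mechanical-load factors differ among them. Each runs from 250 bases before to 50 bases after the RefSeq start (GRCh38.p14), 5′ to 3′ on the gene's strand, with matches in capitals. The motifs searched on both strands were GATAA for GATA factors, CATTCC for TEAD factors and the SRF CArG box, found in 22.7%, 14.03% and 1.29% of 35116 promoters of the same length. MYL7 on the minus strand at chr7:44141283-44141582 holds 1 match of each, ANKRD1 on the minus strand at chr10:90921038-90921337 holds 1 GATA and 2 TEAD matches, and CER1 on the minus strand at chr9:14722684-14722983 holds none.
MYL7: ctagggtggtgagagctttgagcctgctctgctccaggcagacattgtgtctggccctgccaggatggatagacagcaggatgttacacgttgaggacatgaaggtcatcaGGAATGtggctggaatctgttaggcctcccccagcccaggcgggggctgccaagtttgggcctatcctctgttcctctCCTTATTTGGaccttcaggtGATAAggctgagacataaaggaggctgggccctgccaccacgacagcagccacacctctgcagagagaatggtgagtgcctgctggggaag
ANKRD1: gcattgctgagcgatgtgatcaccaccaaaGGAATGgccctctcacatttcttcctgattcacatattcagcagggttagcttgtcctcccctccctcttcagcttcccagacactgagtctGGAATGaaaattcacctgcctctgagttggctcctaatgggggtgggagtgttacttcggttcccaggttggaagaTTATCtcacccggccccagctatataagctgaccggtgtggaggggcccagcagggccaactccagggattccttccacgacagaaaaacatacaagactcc
CER1: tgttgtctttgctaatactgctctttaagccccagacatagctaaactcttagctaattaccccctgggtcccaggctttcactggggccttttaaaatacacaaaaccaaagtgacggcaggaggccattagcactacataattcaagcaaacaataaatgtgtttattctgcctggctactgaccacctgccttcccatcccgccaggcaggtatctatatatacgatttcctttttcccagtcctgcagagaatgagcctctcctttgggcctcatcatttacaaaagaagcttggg

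The MYL7 matches lie 41 bases (GATA), 61 bases (CArG) and 139 bases (TEAD) before the start, and the ANKRD1 matches 52 bases (GATA), 128 and 220 bases (TEAD) before it. Of the 15 leading genes, 9 had an entry, with 14 promoters, of which 4 held a GATAA match, 6 a CATTCC match and 1 a CArG box. TAGLN, PHLDA2, LEFTY1, MYL4, MYL9 and STC1 were not among the entries, nor was NPPB. A match is a run of letters and shows no binding in these cells.

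CER1, a secreted antagonist of NODAL, BMP and WNT, was lower in members on D6 than on D4. On D4 it stood at 673 [654, 694] CPM in members and 121 [117, 124] CPM in cells without NPPB, and a UMI was found in 50.9% against 17.9% of cells. By D6 the levels were 75.3 [68.8, 82.2] and 29.0 [27.1, 30.9] CPM, and the shares 12.9% and 4.65%. CER1 was thus found in 239 of 470 members on D4 and 62 of 479 on D6, when 5 cells held 48.2% of its UMIs. The log2 ratio was 2.48 [2.42, 2.54] on D4 and 1.38 [1.22, 1.54] on D6. The D6 value depended on which cells were compared. It was 2.78 when the glycophorin limit was also put on the cells without NPPB and 1.72 with depth-matched reference cells. It was 0.94 when cells with 1 NPPB UMI were counted as members and 3.16 when all gates were set on cells thinned to 3430 UMIs.

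The NODAL antagonists LEFTY1 and LEFTY2, near-identical neighbours between which reads may be split, were also higher in members. LEFTY1 stood at 347 against 118 CPM on D4 and 321 against 141 CPM on D6. LEFTY2 stood at 555 against 244 CPM and 45.7 against 10.3 CPM, so its level in members was low on D6. NODAL itself, the ligand, was at 79.0 against 31.2 CPM (1.34 [1.19, 1.49]) on D4 and 80.4 against 53.5 CPM (0.59 [0.45, 0.73]) on D6. On the NODAL and activin list 15 genes were compared, of which 4 passed 2-fold higher on D4 and 3 on D6, against 0.969% and 0.310% of all genes (LEFTY1 on D6 was at 0.95 with at least 10 FN1 UMIs in both groups), with medians of 0.20 and 0.13. Of its receptor genes, ACVR1B stood at 0.04 and 0.13, ACVR2A at -0.28 and -0.07, and ACVR2B below 0 at -0.27 [-0.43, -0.12] and -0.29 [-0.44, -0.13]. Of the SMAD genes, which carry the signal to the nucleus, SMAD2 stood at 0.08 and 0.01 and SMAD4 at -0.03 and 0.08, while SMAD3 lay under the 10 CPM minimum, at 3.94 against 1.73 CPM on D4 and 5.64 against 5.69 CPM on D6.

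The anterior visceral endoderm list was split. CER1, LEFTY1, LEFTY2 and, on D4, the organizer factor GSC (43.9 against 16.4 CPM) were over 2-fold higher in members, 4 of 10 compared genes on D4 and 3 of 10 on D6, against 0.969% and 0.310% of all genes. The transcription factors LHX1 and HHEX of the same list were not, at 67.1 against 71.4 CPM and 58.2 against 73.0 CPM on D4, and at 99.0 against 145 CPM and 62.5 against 79.1 CPM on D6. The list medians were 0.58 and 0.22.

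The remaining leading genes had varied roles. PHLDA2, an imprinted growth regulator, had log2 ratios of 1.57 [1.40, 1.74] and 1.44 [1.27, 1.60]. STC1, a secreted glycoprotein hormone, had 1.20 and 0.91, and LIFR, the receptor for leukaemia inhibitory factor, 0.97 and 0.87. TUBB6, a beta tubulin, had 1.05 and 0.85, and TRNP1, a nuclear protein of neural progenitors, 1.16 and 0.84. VIM, the intermediate filament of mesenchymal cells, stood at 1509 against 611 CPM on D4 and 1000.2 against 567 CPM on D6, with medians of 18 against 5 and 10 against 4 UMIs per cell. Among less abundant genes 2-fold higher on both days, the shear-responsive factor KLF2, picked out after its values were seen and at 10 CPM or more in members only, stood at 15.8 against 4.46 CPM on D4 and 10.4 against 3.09 CPM on D6.

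**Figure D3:**
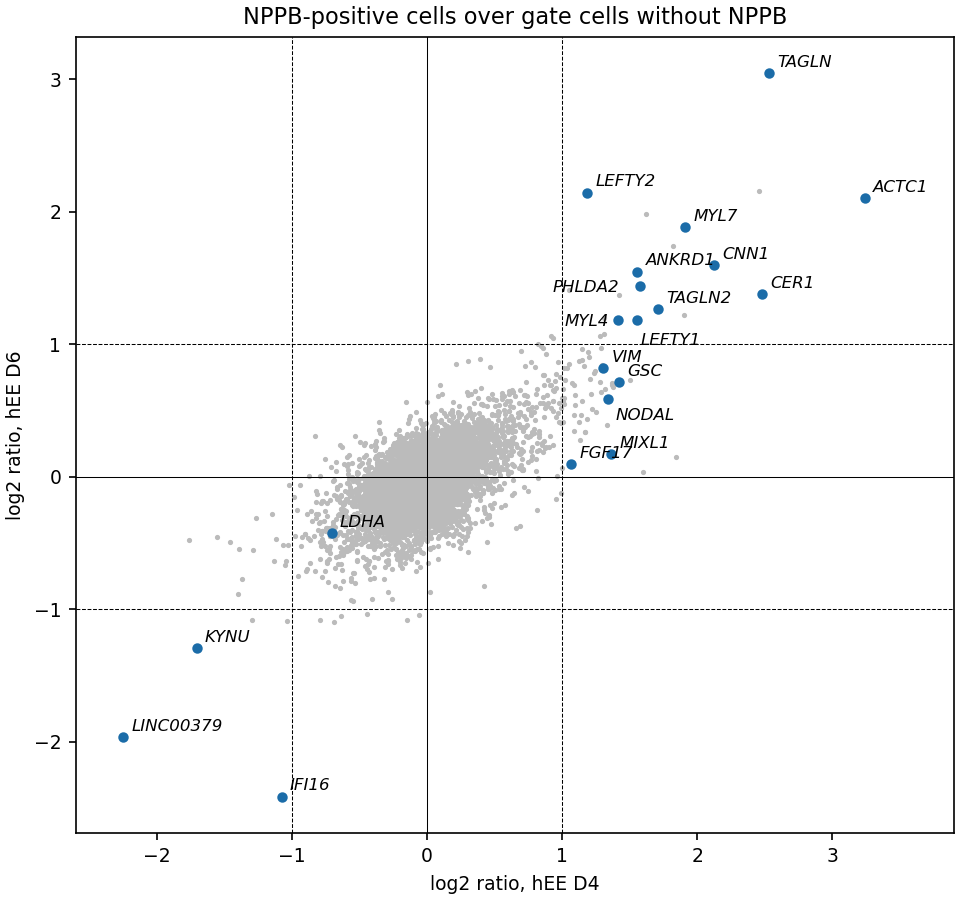
Log2 ratio of NPPB-positive cells over gate cells without NPPB on D4 (horizontal) and D6 (vertical), 1 grey point for each of 8397 genes compared on both days, with named genes in blue and dashed lines at 2-fold. TAGLN lies at 2.53 and 3.05, 20 genes lie beyond 2-fold in the upper right and 5 in the lower left, and MIXL1 and FGF17 lie beyond 2-fold on D4 alone.

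The 10 low genes, all of at least 50 CPM in cells without NPPB, had ratios between -1.12 (PRTG, a neural cell surface receptor) and -0.47 (IGFBP2) on D4, and between -0.79 (TFPI, the tissue factor pathway inhibitor) and -0.45 (HILPDA) on D6. Of these, BNIP3L, a mitophagy receptor, stood at 81.2 against 129 CPM and 81.8 against 129 CPM, FAM162A at 162 against 333 CPM and 215 against 335 CPM, and the lipid droplet protein HILPDA at 51.7 against 84.9 CPM and 51.2 against 69.8 CPM. BNIP3L, FAM162A and HILPDA are known as genes induced by hypoxia. The others were WDR54, AGPAT5 of phospholipid synthesis and the noncoding RNAs PCAT14 and AC007405.3. On the glycolysis and hypoxia list 11 of 14 genes lay below 0 on each day, where 57.5% and 60.6% of all genes did, and none passed 2-fold, with medians of -0.29 and -0.17. LDHA, lactate dehydrogenase, stood at 789 against 1287 CPM (-0.71 [-0.75, -0.67]) on D4 and 1028 against 1379 CPM (-0.42 [-0.46, -0.39]) on D6.

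Among the 5 genes 2-fold lower on both days, named after their values were seen, KYNU, kynureninase of tryptophan breakdown, stood at 30.6 against 99.8 CPM on D4 and 16.2 against 39.6 CPM on D6. The noncoding RNA LINC00379 stood at 5.76 against 27.3 and 12.6 against 49.4 CPM. The DNA sensor IFI16, TPPP3 and CNKSR2 were the others. Some wide gaps came from few reference cells. S100A6, a calcium-binding protein, on D4 stood at 0.606 against 43.4 CPM, with its UMIs in 98 of 3301 cells without NPPB, and HAPLN1, a matrix link protein, on D6 at 0.457 against 15.2 CPM, with its UMIs in 45 of 2858. Within the glycophorin limit of the members the reference level of HAPLN1 was 6.63 CPM. S100A6 and HAPLN1 were named after their values were seen. ISL1, a transcription factor of amnion and of some endoderm cells, was at 10.9 against 28.7 CPM on D4 and 3.20 against 6.71 CPM on D6.

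Most signalling lists were near the background of all genes. On the BMP list 17 and 18 genes were compared and none passed 2-fold (medians -0.03 and -0.01), with the target ID4 at -0.75 and -0.41 and ID3 at -0.37 and -0.29. The WNT list (15 and 16 compared, none past 2-fold) had medians of 0.09 and -0.10, and the TGF-beta list (5 compared, none) 0.44 and 0.11. On the FGF list 12 and 13 were compared, medians were -0.17 and -0.13, and the ligand FGF17 alone passed 2-fold, on D4 (0.969% of all genes were higher), where it was at 0.89 when cells with 1 NPPB UMI were counted as members. The basement membrane list (17 and 16 compared, none past 2-fold) had medians of -0.01 and 0.21, with the collagen hydroxylase P4HA1 at -0.71 and -0.45.

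Of 11 genes of epithelial and mesenchymal state, 8 on D4 and 9 on D6 lay above 0 (42.5% and 39.4% of all genes), VIM alone was past 2-fold higher on D4 (0.969% of all genes) and TWIST1 alone past 2-fold lower on D6 (0.172%). The epithelial keratins KRT8 and KRT18 also had ratios above 0 (0.39 and 0.41, 0.59 and 0.57), whereas KRT19 lay below 0 at -0.08 [-0.10, -0.06] and -0.10 [-0.12, -0.08]. EPCAM, an epithelial adhesion molecule, stood at -0.19 on D4 and 0.06 on D6, and CDH2 stood at 0.25 and 0.13. Primitive streak genes (4 compared) had medians of 0.57 and 0.05, and MIXL1, 1 of the 4, passed 2-fold on D4 (0.969% of all genes). Endoderm transcription factors (14 and 13 compared) had medians of -0.0026 and -0.08, and ISL1 alone passed 2-fold, lower on D4 (0.388% of all genes). Proliferation genes lay below 0 in 14 of 14 on D4 (57.5% of all genes) and above 0 in 10 of 14 on D6 (39.4%), none past 2-fold, with medians of -0.17 and 0.09.

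On the yolk sac maturation list 4 and 13 genes were compared, with medians of -0.05 and -0.12. AFP, the fetal plasma protein, alone passed 2-fold, on D6 (0.310% of all genes were higher), at 44.2 [39.2, 49.6] against 10.9 [9.78, 12.1] CPM. Only 19 of 479 members had an AFP UMI, and 5 of them held 79.7% of the UMIs. The immediate early and heat shock genes, which dissociation can induce, had ratios above 0 in 11 of 13 compared on D4 and 10 of 12 on D6 (42.5% and 39.4% of all genes), with medians of 0.33 and 0.24. ATF3, a stress-induced transcription factor, alone passed 2-fold, on D4 (0.969% of all genes were higher). It stood at 17.6 against 7.81 CPM (1.17 [0.85, 1.49]) on D4 and at 18.3 against 14.5 CPM (0.34 [0.04, 0.63]) on D6. The summed level of the list was 3403 CPM in members and 2843 CPM in cells without NPPB on D4 and 3336 and 2928 CPM on D6, led by HSP90AA1. The list's part in the members' profile was not tested.

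Differences between members and their reference were wider on D4 than on D6 for several genes. MIXL1, a primitive streak and endoderm factor, stood at 55.2 against 21.5 CPM on D4 and 90.2 against 80.1 CPM on D6. FGF17 stood at 550.4 against 262 CPM and 498 against 466 CPM, and CYP26A1, which breaks down retinoic acid, at 1060.1 against 420.3 CPM and 1092 against 832 CPM. For FGF17 and CYP26A1 the members were at about the same level on both days and the cells without NPPB stood higher on D6. CER1 and GADD45A, a stress-response gene, were the others of the 5. For CER1 the order of the days depended on which cells were compared. Its log2 ratio was 2.49 on D4 and 2.78 on D6 when the glycophorin limit was also put on the cells without NPPB. With all gates set on thinned cells it was 2.38 and 3.16. In the opposite direction, PRTG, the apolipoprotein gene APOB, the growth factor gene KITLG, the cell cycle gene CDCA2 and the glucose transporter gene SLC2A1 had higher log2 ratios on D6. SLC2A1 stood at 64.1 against 109 CPM on D4 and 172 against 195 CPM on D6.

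Among members, fewer cells had much TAGLN on D6 than on D4, with at least 5 UMIs in 64.7% [60.3, 69.0] against 86.0% [82.5, 89.0], although the summed levels were 1334 and 1502 CPM. APOA1 was at 2190 CPM on D4 and 13190 on D6, with the same direction in cells without NPPB (1495 and 11722 CPM). CER1 (673 and 75.3 CPM), LEFTY2 (555 and 45.7 CPM) and CNN1 (54.3 and 25.7 CPM) were lower on D6. ANKRD1 (228 and 304 CPM), MYL4 (66.8 and 115 CPM) and GATA6 (196 and 338 CPM) were higher on D6.

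Among members, TAGLN, MYL7 and VIM stood higher in cells with at least 10 NPPB UMIs than in cells with 2 to 3. TAGLN stood at 925, 1276 and 2076 CPM in members with 2 to 3, 4 to 9 and at least 10 NPPB UMIs on D4, and at 522, 691 and 2206 CPM on D6. Gate cells with 1 NPPB UMI and within the glycophorin limit, outside the rule, were between the lowest of these and the cells without NPPB, at 662 and 336 CPM. MYL7 went from 338 to 586 CPM on D4 and from 259 to 550.2 CPM on D6, with 228 CPM in the middle range. VIM went from 1127 to 1833 CPM and from 797 to 1193 CPM, and LDHA, lactate dehydrogenase, in the other direction, from 942 to 664 CPM and from 1194 to 892 CPM. ANKRD1 stood at 162, 191 and 301 CPM on D4 and at 185, 331 and 354 CPM on D6. Cells with more NPPB were also deeper, with median depths of 11659, 13253 and 13441 UMIs on D4 and 12404, 12438 and 14192 on D6. Counted in cells thinned to equal depth, the log2 ratio of TAGLN between the highest and the lowest range was 1.18 on D4 and 1.91 on D6, against 1.17 and 2.08 unthinned.

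**Figure D4:**
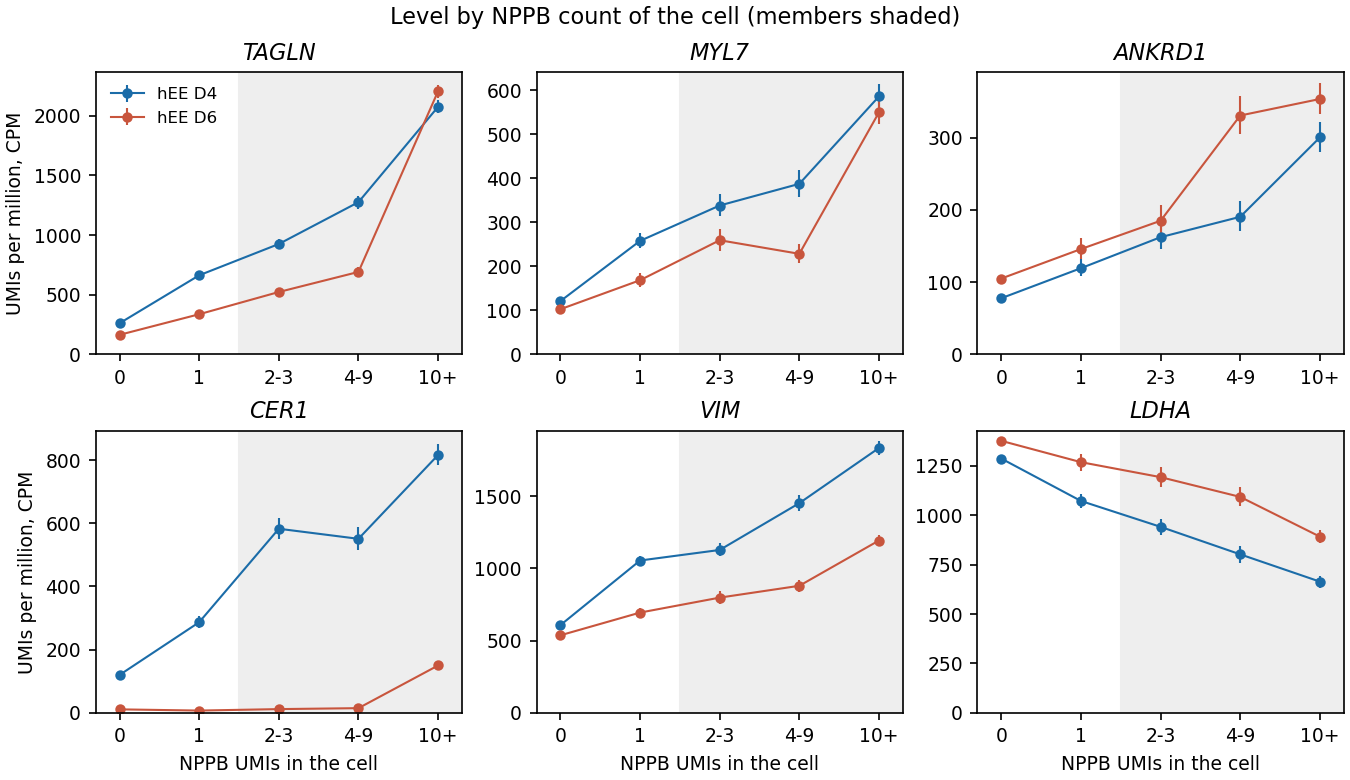
Level in CPM of 6 genes against the number of NPPB UMIs in the cell for hEE D4 and hEE D6, with exact 95% Poisson bars and the ranges that hold the members shaded. TAGLN reaches 2076 CPM on D4 and 2206 CPM on D6 in cells with 10 or more NPPB UMIs, CER1 on D6 is above 100 CPM in that range only, and LDHA runs the other way.

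CER1 on D6 was set apart by the highest range. It stood at 11.8 CPM in members with 2 to 3 NPPB UMIs, 14.8 CPM with 4 to 9 and 149.9 CPM with at least 10, while on D4 the values were 583, 551 and 816 CPM. Of the 494 CER1 UMIs in members on D6, 446 were in the highest range, and a few cells held much of the total, as given above. In thinned cells the log2 ratio of CER1 between the highest and the lowest range was 2.78 [1.66, 4.14] on D6, against 3.67 unthinned, and 0.73 on D4, against 0.49. Members with a CER1 UMI, 239 on D4 and 62 on D6, had more TAGLN (1804 against 1161 CPM on D4, 2610.4 against 1117 CPM on D6) and more LEFTY1 (578 against 85.5 CPM, 830.4 against 234 CPM). They had less ANKRD1 (187 against 274 CPM, 221 against 318 CPM) and less APOA1 (1487 against 2984 CPM, 7085 against 14231 CPM). So TAGLN and ANKRD1, both leading genes of the members as a whole, differed in opposite directions between members with and without CER1. Median depths were 13228 and 12243 UMIs on D4 and 14572 and 12726 on D6, and median mitochondrial shares 4.55% and 4.47% on D4 and 3.49% and 2.41% on D6. NPPB, which chose the members, also differed between them, at 1644 against 989 CPM on D4 and 3084 against 1508 CPM on D6. The part of depth, mitochondrial share and NPPB in these differences was not tested.

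Not every member had much TAGLN. At most 4 TAGLN UMIs were found in 66 members on D4 and 169 on D6, against 404 and 310 with at least 5. The members with little TAGLN had less MYL7 (151 against 497 CPM on D4, 141 against 496 CPM on D6). ANKRD1 was at 199 against 232 CPM on D4 and 339.9 against 287 CPM on D6, so its level did not follow that of TAGLN among members on D6. Depth was lower in the members with little TAGLN, at medians of 11094 against 13226 and 12137 against 13665 UMIs, and so was NPPB, at 478 against 1453 CPM on D4 and 500.4 against 2320.2 CPM on D6. The part of either was not tested.

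The members were set beside 3 other groups of gate cells without NPPB, chosen within the glycophorin limit by at least 2 UMIs of CER1 (314 and 45 cells), FGFBP3 (107 and 24) or ISL1 (190 and 31). Of these genes, CER1 was the one most often found in members: 179 of 470 members on D4 (38.1%) and 41 of 479 on D6 (8.56%) had at least 2 CER1 UMIs, against 9.66% and 2.24% of cells without NPPB. At least 2 UMIs of FGFBP3 were found in 5.32% of members against 3.24% of cells without NPPB on D4 and in 0.626% against 0.840% on D6. For ISL1 the shares were 2.34% against 5.76% on D4 and 0.626% against 1.08% on D6. TAGLN stood at 495, 246 and 124 CPM in the CER1, FGFBP3 and ISL1 groups on D4 and at 243, 191 and 112 CPM on D6, all below the members. MYL7 stood at 154, 90.7 and 59.2 CPM on D4 and 159.5, 70.4 and 98.5 CPM on D6, again below them. LEFTY1 was higher in the CER1 group than in members, at 835 and 667 CPM, and so was LHX1, at 118 and 201 CPM, while ANKRD1 was lower there, at 40.2 and 25.5 CPM.

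TAGLN was also found in the inner compartment. Embryonic cells with at least 10 TAGLN UMIs numbered 363 on D4 and 96 on D6, and VIM (2152 and 1404 CPM), VCL (405 and 522 CPM) and CNN1 (50.1 and 61.3 CPM) were at or above the level of the members there, except CNN1 on D4. MYL7 (13.3 and 63.1 CPM), ANKRD1 (3.58 and 27.0 CPM) and MYL4 (1.19 and 16.8 CPM) were far below the members' levels. NPPB was present in 13.5% and 12.5% of these cells, and 1 cell held 389 of its 505 UMIs on D6.

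**Figure D5:**
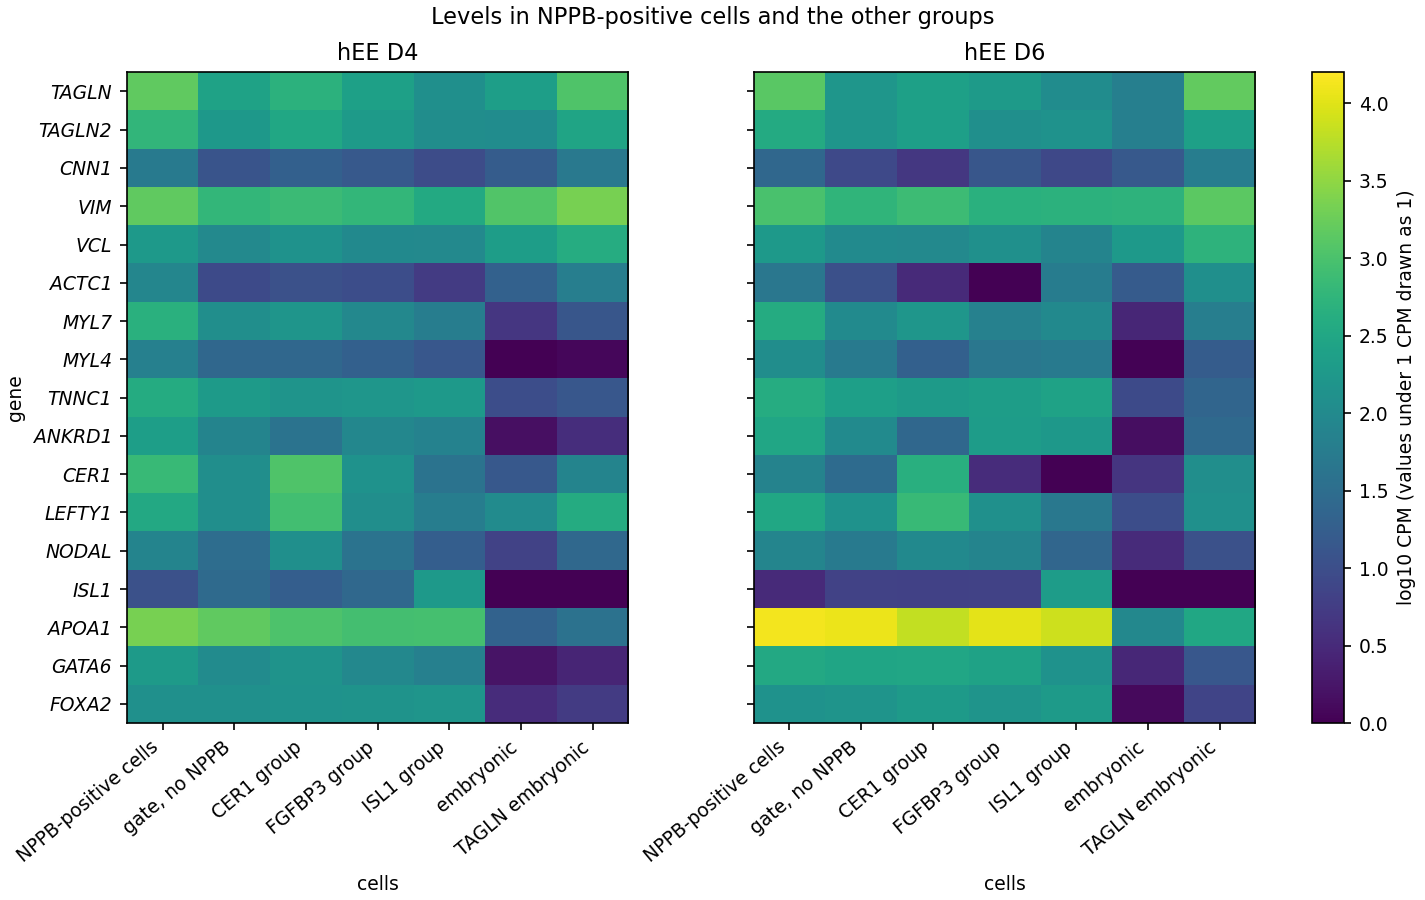
Level of 17 genes as log10 CPM (colour) in NPPB-positive cells, gate cells without NPPB, the CER1, FGFBP3 and ISL1 groups, embryonic cells and embryonic cells with at least 10 TAGLN UMIs on D4 and D6. TAGLN is bright in members and in the embryonic cells chosen for it, whereas MYL7 and ANKRD1 are dark in embryonic cells (at most 63.1 CPM for MYL7).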

How the data were processed

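The deposited matrices held raw UMI counts per gene and barcode for 1 library on D4 and 1 on D6. Per the submitters' processing notes the authors aligned to hg38 with Cell Ranger (6.0.1 in the matrix headers) and worked in Seurat 4.0.1 under R 4.0.3. From those counts, cells were filtered on UMIs and the share of genes on MT-, with the limits that the study's methods state. The study's later quality control of subclusters, which took out further cells, was not repeated. UMIs were summed over the cells of each group and divided by the group's total to give CPM. Python 3.11.15, NumPy 2.4.6, SciPy 1.17.1, pandas 2.3.3, Scanpy 1.11.5 (Scrublet) and matplotlib 3.10.9 were used, and the counting was tested on simulated data. With 1 library a day no test was run, and past 2-fold was the call. The members, gene lists and naming rule (50 CPM rank rule, list and marker genes, others marked as named after their values were seen) were chosen with earlier results of these data known. Alternatives varied the thresholds, filters, reference cells, level, scaling and fold, and 3 were added after the data were seen: leaving out barcodes found in both libraries, reference cells matched on MT- share, and the glycophorin limit on the reference for every listed gene. The 7 bisulfite libraries were not analysed here. Promoters came from RefSeq (GRCh38.p14).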

Additional observations from a re-analysis of the deposited data

Results flagged for a closer look

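GADD45A, a gene of the stress and DNA damage response, had a log2 ratio of members over gate cells without NPPB of 0.74 on D4 and -0.11 on D6, on opposite sides of 0. CDCA2, a gene of mitotic chromosomes, had log2 ratios of -0.33 on D4 and 0.26 on D6, also on opposite sides of 0. Under 1 of 13 alternatives its D6 ratio was -0.01, on the same side as on D4. Each day is 1 library, and the difference between the days was not tested for either gene.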

How the results depend on the processing

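No paired analysis was possible because there was 1 library for each day and no result came from a test. NPPB-positive cells were 8.25% of kept cells on D4 and 6.90% on D6 with at least 1 NPPB UMI, 3.35% and 3.45% with at least 4, 2.23% and 2.31% with at least 10 FN1 UMIs, and 1.13% and 1.49% with gates on cells thinned to 3430 UMIs. Without UMI and MT- limits the D4 share was 4.56%. Genes 2-fold higher on D4 (85) numbered 45 with at least 1 NPPB UMI, 156 with thinned gates, 326 with no CPM minimum and 292 past 1.5-fold. Genes lower on D4 (34) numbered 14, 139, 799 and 226 in that order, and 21 with reference cells matched on MT- share. Genes higher on D6 (27) numbered 43 with at least 4 NPPB UMIs, 62 with thinned gates, 149 with no CPM minimum and 133 past 1.5-fold. Genes lower on D6 (15) numbered 6 with at least 1 NPPB UMI, 27 with at least 4, 80 with thinned gates, 696 with no CPM minimum and 120 past 1.5-fold. Apart from the wider fold and the missing CPM minimum, which admit more genes by construction, the cause was not tested. The other 47 values of shares and counts stayed within 1.5 times or their interval. Of the single-gene log2 ratios, 666 stayed within their counting interval and 218 did not, none of the latter reversing a 2-fold difference. Of 10 ratios between the highest and the lowest NPPB range, 5 moved in thinned cells with no change of sign. Some 2-fold differences ended under at least 1 alternative, where the log2 ratio nearest to 0 was 0.96 for STC1, 0.87 for TUBB6, 0.99 for TRNP1, 0.81 for VCL, 0.89 for FGF17, -0.67 for FAM162A and -0.80 for PRTG on D4, and 0.94 for CER1 and 0.95 for LEFTY1 on D6. FGF17, APOB and CDCA2 on D6 took the opposite sign under 1, 2 and 1 alternatives. Genes under 10 CPM rest on few UMIs, and no interval here covers variation between cultures.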
